A study of Mus musculus and synthetic construct with 3 samples.

Results

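The smooth muscle hexagons were the regions of the aortic wall in which contractile RNA outweighed collagen RNA. They were chosen on a Seq-Scope array, which captures RNA from a tissue section on barcodes of known position, after the barcodes had been binned into hexagons with sides of 12 μm. A hexagon was kept when it held UMIs (unique molecular identifiers, each standing for 1 captured RNA) of 50 or more genes. A kept hexagon was a member when the UMIs of Acta2, Tagln, Myl9, Myh11 and Csrp2 together came to at least 3 and exceeded those of Col1a1, Col1a2, Dcn, Lum and Fbln1. Of 11687 kept hexagons in 20 sections, 1105 (9.45%) were members. They carried 112634 of the 1038083 exonic UMIs in kept hexagons. A hexagon is a small region that can hold parts of several cells, so a member is not a single smooth muscle cell, and fewer cells in a hexagon cannot be told apart from less RNA per cell.

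The tissue was the suprarenal abdominal aorta of male Apoe-/- mice on a normal diet, a background that all groups shared. The labels give an age of 16 weeks at the start of infusion, and the methods of the study another age. Minipumps delivered saline (control) or AngII for 4 weeks, and 3 of 5 AngII mice developed an abdominal aortic aneurysm (AAA). Only those 3 AAA mice and 3 control mice were sectioned, so the AAA group was selected for the outcome, and each AAA aorta was embedded beside a control aorta. Each condition gave 10 sections of 10 μm on 1 array, and the mouse was the replicate (n = 3 and 3).

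Smooth muscle cells make up the media of the aorta and hold tension through actin and myosin filaments that are anchored to the matrix at focal adhesions. Smooth muscle actin (Acta2), transgelin (Tagln), the myosin light chain Myl9, the myosin heavy chain Myh11 and the LIM protein Csrp2 belong to this machinery. Serum response factor, which drives many contractile genes, binds a sequence element called the CArG box. In aneurysms, smooth muscle cells are known to be lost and to lower their contractile genes.

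The sequences upstream of 3 of the genes described are shown because they hold the elements for which these gene groups are known. Of 37 genes looked up by symbol, 24 matched the RefSeq promoter table (GRCm38.p6). A CArG box in the strict form CCWWWWWWGG (W being A or T, the same on both strands) was found within the 250 bases before a start of 2 of them, Myl9 and Myl6, and in 1.47% of all 32851 windows. Boxes that depart from this form were not searched for. The lack of a match, as before Acta2 and Cnn1, thus does not show that a gene has no such element. The letters of the strict box are in capitals in the stretch of chr2:156775214-156775413 (plus strand, 5′ to 3′) before Myl9, and in the site before 1 of 2 Myl6 starts, chr10:128493050-128493079 (minus strand), which also lies in an annotated exon of a Myl6 transcript.
Myl9: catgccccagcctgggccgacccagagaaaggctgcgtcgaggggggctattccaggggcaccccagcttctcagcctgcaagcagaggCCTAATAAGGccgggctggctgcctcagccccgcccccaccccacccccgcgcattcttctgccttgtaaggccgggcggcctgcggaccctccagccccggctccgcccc
Myl6: tagagtccaggctcttacttCCTTATATGG
The Myl9 box began 161 bases before the start, and the Myl6 box 50 bases before it. The core of the heat shock element, GAANNTTC (the same on both strands), occurred 2 times before Hspb1, beginning 117 and 97 bases upstream, and once before Mylk, 161 bases upstream, the only 2 of the 24 genes that held it. It was found in 6.69% of all windows. The Hspb1 copies are in capitals in chr5:135887669-135887868 (plus strand).
Hspb1: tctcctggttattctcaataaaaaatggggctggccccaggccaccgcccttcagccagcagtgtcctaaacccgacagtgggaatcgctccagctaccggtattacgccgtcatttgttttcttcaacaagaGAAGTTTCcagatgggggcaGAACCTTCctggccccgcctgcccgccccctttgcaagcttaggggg
A match describes the letters only.

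The depth of a hexagon was low. Members had a median of 89 UMIs and 81 genes, and 73.8% of them had only 3 or 4 contractile UMIs, with a median of 3 and a maximum of 17. By condition, 65.9% of control members and 77.9% of AAA members had 3 or 4. Just outside the rule lay 1160 hexagons with 2 contractile UMIs above their collagen UMIs, just inside it 554 with 3, and another 41 had 3 or more but did not exceed their collagen UMIs. Hexagons with 2 contractile UMIs held 3003 Myl6 CPM (a gene's UMIs scaled to a fixed total over all genes of the class), those with 3 held 3224 and all members 3791, against 1963 in the 5690 hexagons with no contractile UMI. Myl6, the light chain that smooth muscle shares with other cells, was thus higher at each of these steps, given with no test, although the rule did not use it. The 41 hexagons that did not exceed their collagen UMIs held 1203 CPM. These classes pool both conditions. Control hexagons were 427 of the 5690, 247 of the 1160, 149 of the 554 and 375 of the 1105 members. Among the other kept hexagons Myl6 was itself higher in control (mean 3715 CPM) than in AAA mice (2107 CPM). The steps are thus not separate from the mix of conditions. Within mice, Myl6 was higher in members than in the others in 5 of 6.

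RNA known from other organs was on the array in members and in the others. A UMI of Alb, the albumin gene of liver, was found in 54.7% of members and in 52.2% of the other kept hexagons, and a UMI of the intestinal gene Mptx1 in 38.0% and 38.9%. Members were deeper (median UMIs per mouse of 75 to 97, against 64 to 78 in the others), and in CPM Alb was lower in members in 5 of 6 mice (ratio of members to the others 0.96) and Mptx1 in all 6 (ratio 0.86). The CPM totals include the contractile genes of the rule, which were 3.05% to 5.04% of UMIs in members and 0.586% to 1.46% in the others. The choice of hexagons thus by itself lowers the CPM of other genes in members, and a ratio of 0.96 does not show less Alb RNA there. By comparison, Acta2 was found in 87.5% of members and 26.7% of the others, Tagln in 60.5% and 12.2%, Myl9 in 57.8% and 12.8%, and Csrp2 in 12.4% and 2.15%. These 4 genes chose the hexagons, so their values describe the choice. Myh11, found in 5.16% of members, was barely sampled.

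Among the contractile genes of the rule, Acta2 was the most abundant in every mouse. It made up 51.9%, 42.9% and 49.7% of their UMIs in control mice 1, 2 and 3, and 46.1%, 41.8% and 48.3% in AAA mice 1, 2 and 3. Its level in members was 22625, 18176 and 25050 CPM in controls and 16635, 12764 and 20153 CPM in AAA, with overlap. Myl9 was at 10317, 11064 and 11377 CPM in control members and at 7869, 8349 and 9138 CPM in AAA members, without overlap. Tagln overlapped widely, at 7610, 11064 and 10778 CPM in control members and 9357, 7006 and 10473 CPM in AAA members. Csrp2 was at 2022 ± 458 CPM in control and 1703 ± 119 in AAA members (SD, n = 3 and 3). No test was made of these genes because they chose the hexagons.

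Smooth muscle hexagons made up a smaller share of the AAA sections than of the control sections. They were 194 of 664, 62 of 387 and 119 of 440 kept hexagons in control mice 1, 2 and 3 (29.2%, 16.02% and 27.0%), and 381 of 5556, 91 of 1971 and 258 of 2669 in AAA mice 1, 2 and 3 (6.86%, 4.62% and 9.67%). Every control mouse was above every AAA mouse. The means were 24.1% ± 7.08 and 7.05% ± 2.53 (SD, n = 3 and 3). A two-sided permutation test, exact over all splits, gave p = 0.1, the lowest this design can reach. The number of members was not smaller in AAA, with 730 members against 375 in control mice. The AAA sections had 10196 kept hexagons against 1491, so the smaller share went with a larger denominator. After each hexagon had been thinned to 50 UMIs, 10.8% ± 3.96 of control and 2.48% ± 1.30 of AAA hexagons were members (SD, n = 3 and 3), again with no overlap (exact permutation test, p = 0.1).

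**Figure D1:**
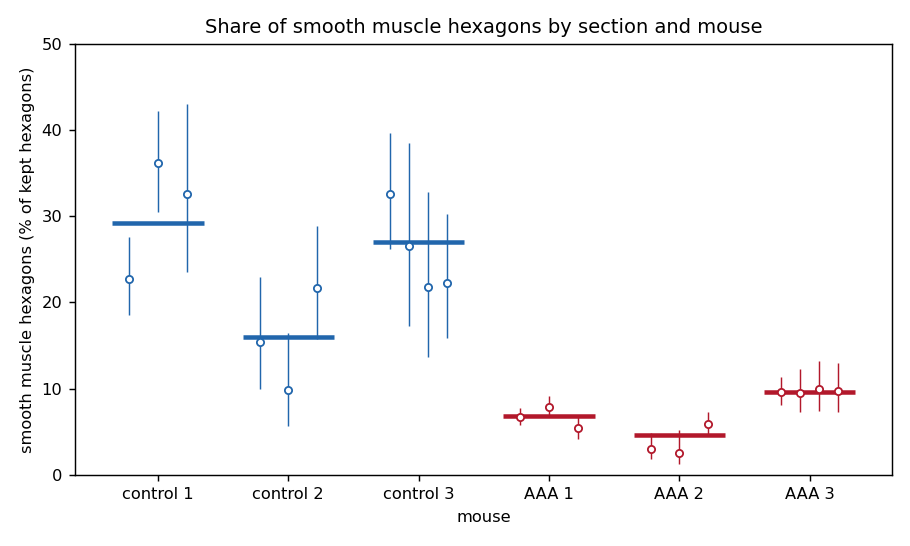
Share of smooth muscle hexagons among kept hexagons (%) in each section (open points with 95% Wilson intervals, which cover counting error only) and in each mouse (thick lines), control in blue and AAA in red. The control sections ran from 9.84% to 36.2% and the AAA sections from 2.57% to 9.93%, so only the lowest control section, in control mouse 2, fell below any AAA section.

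The sections within a mouse also varied. The shares were 9.84%, 15.4% and 21.6% in the sections of control mouse 2, which rested on 12, 18 and 32 members, and the 4 sections of AAA mouse 3 lay between 9.47% and 9.93%. Median shares over sections were 22.5% in control and 7.27% in AAA.

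Members lay beside one another more often than their share would give in every mouse at the rule of 3 contractile UMIs. Pairs of a member and an adjacent kept hexagon were counted, so a hexagon counted once for every member it touched. The share of such pairs in which the neighbor was also a member was 45.2%, 29.7% and 38.8% in control mice 1, 2 and 3. It was 27.2%, 14.2% and 29.5% in AAA mice 1, 2 and 3. Divided by the share of members among all kept hexagons, this gave ratios of 1.55, 1.85 and 1.43 in control and 3.96, 3.08 and 3.05 in AAA (1.61 ± 0.216 and 3.36 ± 0.518, SD, n = 3 and 3, p = 0.1 by exact permutation). The groups did not overlap, but at 75 or more genes per hexagon they did (exact permutation test, p = 0.2), as they did at 5 or more contractile UMIs (exact permutation test, p = 0.4), where the ratio in AAA mice ran from 0 to 13.2 and AAA mouse 2, with 11 members, had no adjacent pair. The ratio divides by a share that was itself smaller in AAA. Of members, 77.3%, 62.9% and 66.4% touched another member among control mice 1, 2 and 3, against 54.9%, 46.2% and 64.7% among AAA mice 1, 2 and 3.

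**Figure D2:**
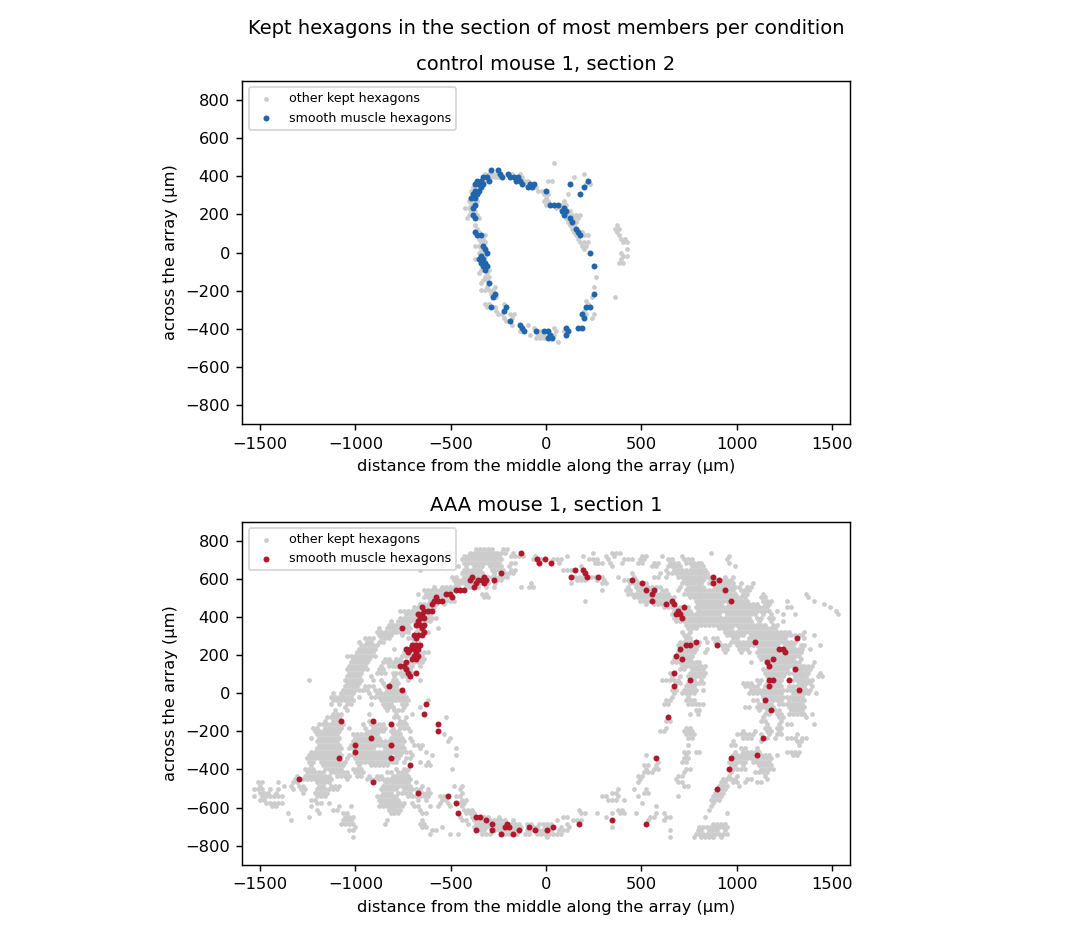
Kept hexagons (grey) and smooth muscle hexagons (colored) in the control section and the AAA section with the most members, plotted by distance from the middle of the section (μm). In the control section, 93 of 257 hexagons were members and followed a thin closed ring, and in the AAA section 165 of 2475 were members, along a wide ring with members also scattered in the tissue outside it.

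Members with and without an adjacent member were then compared within mice, a comparison added once the data had been seen. Of 39 genes tested, 0 (0.0%) passed an adjusted p of 0.05 in edgeR with the mouse as a block, and 6 had an unadjusted p under 0.05. Cpe, which encodes the hormone-processing enzyme carboxypeptidase E, had a log2 fold change of 0.59 in members with a neighbor (SE 0.19, edgeR adjusted p = 0.103). Tpm2 had 0.80 (SE 0.32) and Myl6 0.43 (SE 0.18), both with an adjusted p of 0.159 from edgeR.

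Other genes of actin filaments, matrix and secreted proteins had higher levels in the smooth muscle hexagons than in the other kept hexagons. Of 112 genes outside the rule with 100 or more UMIs in members, 13 were higher in members in all 6 mice and 4 were lower in all 6, while the median ratio of members to the other hexagons was 0.99. This is a description without a test, since the hexagons were chosen by their counts. Genes of the actin machinery were Actn1 (α-actinin, an actin cross-linker), at 1139 CPM in members and 505 in the others for a ratio of 2.25, myosin light chain kinase (Mylk) at 1.71, β-tropomyosin (Tpm2) at 1.53, calponin (Cnn1) at 1.48 and cytoplasmic actin (Actb) at 1.22.

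Ptgis, the prostacyclin synthase, had the second highest ratio, 1.93 (1727 against 893 CPM). Extracellular superoxide dismutase (Sod3) had a ratio of 1.63, elastin (Eln) 1.60, the protease inhibitor Serpine2 1.60, Cpe 1.56, clusterin (Clu) 1.49, biglycan (Bgn) 1.32 and the calcification inhibitor matrix Gla protein (Mgp) 1.31. Mgp was the most abundant of the 13, with 1975 UMIs and a UMI in 68.1% of members against 58.6% of the others. Among the genes lower in members in every mouse were Scd1, the stearoyl-CoA desaturase of adipocytes, at a ratio of 0.66, the ribosomal gene Rps19 at 0.73 and Mptx1.

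**Figure D3:**
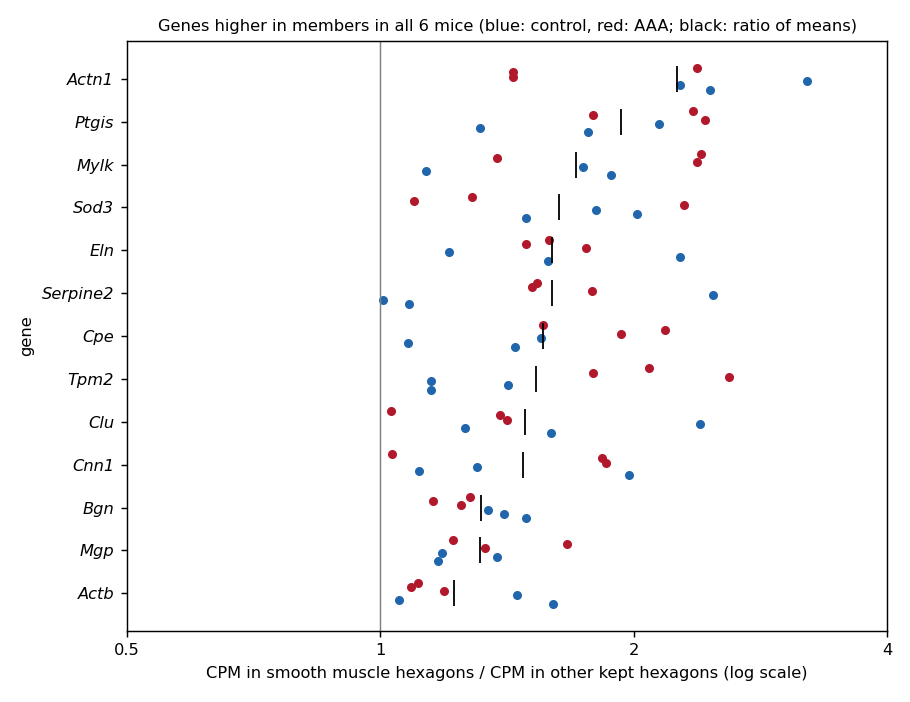
Ratio of CPM in smooth muscle hexagons to CPM in the other kept hexagons (log axis) for the 13 genes that were higher in members in all 6 mice, with a point per mouse (control blue, AAA red) and the ratio of mean CPM in black. Actn1 leads with 2.25 and Actb is lowest with 1.22.

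In the smooth muscle hexagons of AAA mice, 5 genes linked to actin, adhesion and signalling were lower and 4 genes, among them Mgp and lysosomal Ctsb and Lamp1, were higher than in those of control mice. The comparison asked how regions chosen by the same rule differed between conditions, with exonic UMIs summed per mouse. These regions were not equally rich in contractile RNA. Contractile UMIs were 4.36%, 4.24% and 5.04% of member UMIs in control mice 1, 2 and 3. In AAA mice 1, 2 and 3 they were 3.61%, 3.05% and 4.17%, without overlap. Whether this bears on the genes below was not tested. The 10 rule genes were left out and 184 others were tested with edgeR's quasi-likelihood test. At a Benjamini-Hochberg adjusted p under 0.05, 9 genes passed (4.89%), of which 2.17% of all tested genes were higher and 2.72% lower in AAA. The median log2 fold change of all tested genes was -0.01. For 31 genes (16.8%) the mice of both conditions did not overlap in CPM, 17 higher in AAA (9.24%) and 14 lower (7.61%). UMIs in members ran from 6327 to 19580 in control and from 10420 to 42320 in AAA mice, so only well-expressed genes could be tested. Without control mouse 1 or without AAA mouse 3 no gene passed in either direction (18 and 22 genes had an unadjusted p under 0.05 from edgeR), while 3 of the 9 passed without AAA mouse 1, 5 without control mouse 3, and 7 without control mouse 2 or AAA mouse 2. With DESeq2 only Hspb1 and Sost passed.

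Hspb1 (chromosome 5, 135887919 to 135889563, GRCm38) encodes a small heat shock protein that binds actin. Its level in members was 1788, 790 and 1996 CPM in control mice 1, 2 and 3 and 591, 480 and 334 CPM in AAA mice 1, 2 and 3. Every AAA mouse lay below every control mouse, although control mouse 2 gave only 5 UMIs. The log2 fold change was -1.75 (SE 0.32, edgeR adjusted p = 0.000121).

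Sost (chromosome 11, 101962458 to 101967015) encodes sclerostin, a secreted Wnt antagonist. It was at 1124, 1581 and 1597 CPM in control members and at 473, 96.0 and 334 CPM in AAA members, and AAA mouse 2 had a single UMI. The groups did not overlap, with a log2 fold change of -1.85 (SE 0.37, edgeR adjusted p = 0.000405).

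Actn1 and Flna, which cross-link actin filaments, and Itgb1, the β1 integrin subunit that ties focal adhesions to the matrix, were lower. Actn1 (chromosome 12, 80167547 to 80260371) was at 1788, 1422 and 1497 CPM in control and 591, 576 and 960 CPM in AAA members, without overlap, for a log2 fold change of -1.20 (SE 0.31, edgeR adjusted p = 0.0102). Flna (chromosome X, 74223461 to 74249820) was at 4188, 4742 and 2395 CPM in control and 2127, 2111 and 1961 CPM in AAA members. Its groups did not overlap, but control mouse 3 stood close to the AAA mice (log2 fold change -0.88, SE 0.24, edgeR adjusted p = 0.0153). Itgb1 (chromosome 8, 128685654 to 128733200) was at 1685, 632 and 998 CPM in control and 591, 288 and 668 CPM in AAA members. Here AAA mouse 3 lay above control mouse 2, and the log2 fold change was -1.18 (SE 0.33, edgeR adjusted p = 0.0189).

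Mgp (chromosome 6, 136872435 to 136875823) was higher in AAA members. It was at 12870, 11854 and 15270 CPM in control and 17226, 20154 and 23199 CPM in AAA members, without overlap, for a log2 fold change of 0.57 (SE 0.13, edgeR adjusted p = 0.00144).

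Ctsb (chromosome 14, 63122462 to 63145923) encodes the lysosomal protease cathepsin B and Lamp1 (chromosome 8, 13159161 to 13175338) a protein of the lysosomal membrane. Ctsb rose from 562, 158 and 599 CPM in control members to 1181, 1248 and 1252 CPM in AAA members, where the mice lay close together (log2 fold change 1.26, SE 0.36, edgeR adjusted p = 0.0189). Lamp1 was at 766, 316 and 599 CPM in control and 1181, 768 and 2170 CPM in AAA members. The highest control and the lowest AAA mouse nearly met (log2 fold change 1.17, SE 0.36, edgeR adjusted p = 0.0449). Bc1, a small noncoding RNA related to a repeat family and so of uncertain counting, passed with a log2 fold change of 1.18 (SE 0.37, edgeR adjusted p = 0.0449).

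**Figure D4:**
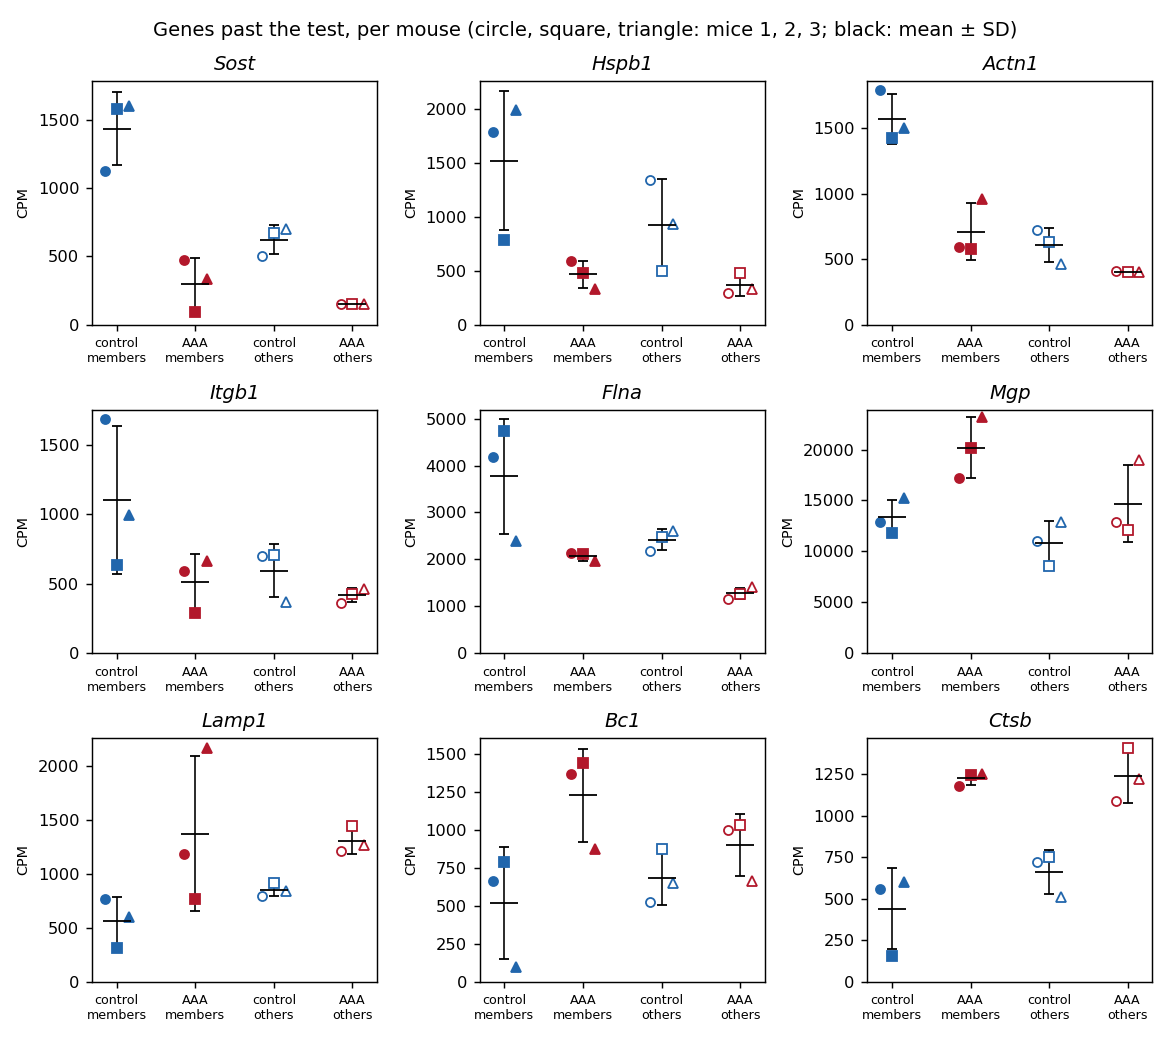
CPM per mouse of the 9 genes past the test in smooth muscle hexagons (filled) and in the other kept hexagons (open), control in blue and AAA in red, with the mean and SD in black. Sost fell from 1434 to 301 CPM and Mgp rose from 13331 to 20193 CPM in the mean of smooth muscle hexagons.

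Macrophage markers were higher in AAA members as well. The 10 markers (Cd68, Lyz2, C1qa, C1qb, C1qc, Adgre1, Csf1r, Gpnmb, Ctsb and Cd5l) summed to between 948 and 1788 CPM in control members and between 3993 and 6142 CPM in AAA members. In the other kept hexagons they summed to 2143 to 2885 CPM in control and 4748 to 5937 CPM in AAA mice, so they were higher in AAA there too. All 10 had a UMI in members, and 1 had none in any control mouse. A hexagon with a UMI of any of them was 15.98%, 9.68% and 11.8% of members in control mice 1, 2 and 3 and 29.9%, 45.1% and 32.6% in AAA mice 1, 2 and 3. Gpnmb, too sparse for the test, had 8, 1 and 6 UMIs in control and 19, 16 and 31 in AAA members, and Lyz2 had 6, 0 and 2 against 36, 14 and 15.

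In an alternative added after the data were seen, members with a UMI of any macrophage marker were left out. This kept 163, 56 and 105 members in control mice 1, 2 and 3 and 267, 50 and 174 in AAA mice 1, 2 and 3. With these fewer hexagons 133 genes were tested and only Mgp passed (log2 fold change 0.60, edgeR adjusted p = 0.0400). Ctsb, itself one of the markers, then had no UMIs, and Itgb1 was no longer among the tested genes. Hspb1 had a log2 fold change of -1.48 (edgeR adjusted p = 0.137), Sost -1.55, Actn1 -1.10, Flna -0.84 and Lamp1 1.18 (edgeR adjusted p = 0.166 for each of these). Bc1 had 1.27 (edgeR adjusted p = 0.396). Why these calls were lost was not tested.

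**Figure D5:**
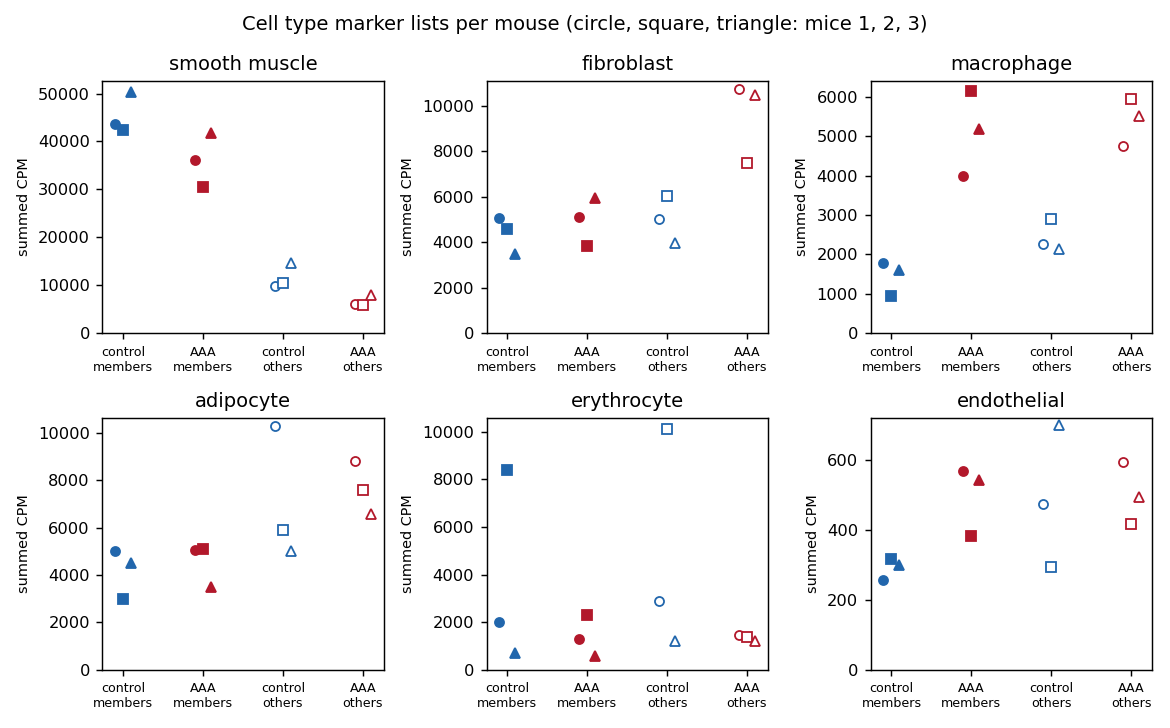
Summed CPM of 6 cell type marker lists per mouse in smooth muscle hexagons (filled) and in the other kept hexagons (open), control in blue and AAA in red. The macrophage list separates control (948 to 1788 CPM) from AAA members (3993 to 6142 CPM), and control mouse 2 stands apart in the erythrocyte list (8377 CPM).

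The other marker lists differed less. The fibroblast markers were the 5 genes of the rule that members had to exceed, so their level in members was limited by the choice. They summed to between 3493 and 5056 CPM in control and 3839 and 5925 CPM in AAA members. In the other kept hexagons they came to 3959 to 6021 CPM in control and 7469 to 10717.5 CPM in AAA mice. Adipocyte markers summed to between 3003 and 5005 CPM in control and between 3505 and 5086 CPM in AAA members. Endothelial markers came to 255 to 316 CPM in control and 384 to 567 CPM in AAA members, on 2 to 24 UMIs a mouse. Of 5 lymphocyte markers, Cd3e and Ms4a1 had no UMI in members. Erythrocyte markers stood at 8377 CPM in control mouse 2, above all other mice (584 to 2303 CPM). Without that mouse 3 genes were higher and 8 lower in AAA, and Hspb1, Sost, Actn1, Flna, Itgb1, Mgp and Bc1 passed again but Ctsb and Lamp1 did not.

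Gene groups were read by their counts beside those of all genes tested. None of the 8 tested genes of the contractile list beyond the rule passed. All 8 had a log2 fold change below 0, with a median of -0.45, where 91 of all 184 tested genes had one above 0. The list is not specific to smooth muscle, since the tested genes include the cytoplasmic actin Actb, Actg1 and Vim. Values ran from -0.97 for Tpm1 (edgeR adjusted p = 0.114) to -0.016 for Actb. Myl6 was at 4954, 5058 and 4591 CPM in control and 3474, 2783 and 3171 CPM in AAA members, without overlap, and just missed the threshold (log2 fold change -0.61, SE 0.20, edgeR adjusted p = 0.0643). Cnn1 had a log2 fold change of -0.83 (edgeR adjusted p = 0.114), Mylk -0.55 and Tpm2 -0.18, the last 2 being above 0 with UMIs over whole genes, at 0.0081 and 0.093. The summed level of the 27 genes in this list lay between 22601.5 and 25025.5 CPM in control and between 17178.5 and 20069.3 CPM in AAA members.

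Of 7 tested genes of focal adhesions and actin-linked LIM proteins, 3 were lower (Actn1, Flna and Itgb1), against 2.72% of all tested genes, and 0 higher, with a median log2 fold change of -0.88. The log2 fold change of 2 of the 7 was above 0, up to 0.63 for the LIM protein Crip1. Actn4, the other widely expressed α-actinin, had -0.49 (edgeR adjusted p = 0.490). Of the 32 genes listed as smooth muscle regulators and signalling, only Sost and Ptgis were tested, a secreted Wnt antagonist and the prostacyclin synthase. Sost was lower, against 2.72% of all tested genes. Ptgis had a log2 fold change of -0.83 (SE 0.28, edgeR adjusted p = 0.0643). Of 4 tested genes of the immediate early and heat shock list, Hspb1 was lower, again against 2.72% of all tested genes. Hsp90ab1 and Hspa8, both chaperones, had -0.61 and -0.39 without passing (edgeR adjusted p = 0.490 and 0.493). Hspa8 passed at 5 or more contractile UMIs, where 28 genes were tested (-1.35, edgeR adjusted p = 0.0172).

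Another list held genes linked to smooth muscle modulation, in which these cells leave the contractile state. Of its 6 tested genes, Mgp was higher and 0 were lower, against 2.17% and 2.72% of all tested genes, with a median log2 fold change of 0.32. The list is not specific to modulation. Serpine2, lowest of the 6 at -0.31, was among the genes higher in members than in the other hexagons. Mgp is also the gene after which the study names a fibroblast cluster, so its rise does not by itself show modulation. Fibronectin (Fn1) was at 3371, 2687 and 3693 CPM in control and 5553, 2783 and 6217 CPM in AAA members, so AAA mouse 2 lay among the controls (log2 fold change 0.61, SE 0.22, edgeR adjusted p = 0.0943). Cd44 had 6 UMIs in all members, Mmp2 24 and Tmem119 12, all of the last in AAA mice.

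No tested gene passed among the matrix lists. Fibrillar Col3a1 had a log2 fold change of 0.51 (SE 0.21, edgeR adjusted p = 0.182) and its groups did not overlap, as for 16.8% of all tested genes. Eln had 0.41, the basement membrane gene Sparc 0.33, Bgn 0.02 and the IGF-binding protein Igfbp4 0.87 (edgeR adjusted p = 0.130). Of the 3 tested macrophage list genes, Ctsb was higher, against 2.17% of all tested genes, and the protease gene Ctsd had 0.65 (edgeR adjusted p = 0.277). None of 8 tested respiratory chain genes, 48 ribosomal genes, 4 antioxidant and caveola genes, 4 MHC genes, 2 genes each of adipocytes and adventitial fibroblasts, 1 globin gene and 1 immunoglobulin gene passed. Among them Cavin1 had 0.47, Sod3 -0.42, H2-D1 0.70, C3 0.70 and Rpl13a 0.54. No endothelial gene was abundant enough to be tested.

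The differences between control and AAA were not shown to be particular to the smooth muscle hexagons. In the other kept hexagons of the same mice 25 of these 184 genes passed (13.6%), 8 higher and 17 lower. Sost had a log2 fold change of -2.05 there (edgeR adjusted p = 2.17e-05), Hspb1 -1.57, Flna -0.999, Actn1 -0.72 and Ctsb 0.76, all past the threshold, while Itgb1 had -0.68, Lamp1 0.53, Bc1 0.38 and Mgp 0.36 and did not pass (edgeR adjusted p = 0.0988, 0.0552, 0.458 and 0.437). A test of the difference between both kinds of hexagon, with the mouse as a block and chosen after the data were seen, called 0 of 184 genes (0.0%) in edgeR, and 14 had an unadjusted p under 0.05. For Hspb1 the difference of log2 fold changes was -0.04 (SE 0.46) and for Mgp 0.25 (SE 0.14). The smallest adjusted p was shared by Tpm2 and the MHC class II gene H2-Ab1. Tpm2 had a log2 fold change of -1.18 in the other hexagons against -0.18 in members, a difference of 0.98 (SE 0.32, edgeR adjusted p = 0.351). H2-Ab1 had 1.23 in the other hexagons, past the threshold (edgeR adjusted p = 0.00383), against -0.18 in members, a difference of -1.45 (SE 0.50, edgeR adjusted p = 0.351). Since 26.7% of the other hexagons held an Acta2 UMI, they were not free of smooth muscle RNA.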

How the data were processed

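Seq-Scope sections of 3 control and 3 AAA mice shared 1 matrix of raw UMI counts, which the authors deposited with exonic and whole-gene columns (32285 genes, 9837644 barcodes). The submitters' processing notes name STARsolo 2.7.5c, Seurat 4 and mm10. Sections were placed from the study's map of the array, not from sample labels, by 37 section edges with a residual SD of 154 μm at 26.6 position units per μm. The 8551 genes whose symbols start with mt or Gm were removed. Exonic UMIs were summed per mouse over members and tested in R 4.3.3 by the quasi-likelihood test of edgeR 4.0.16, after filterByExpr and TMM scaling, with Benjamini-Hochberg adjustment. DESeq2 1.42.0 was an alternative. Shares were compared by exact permutation (scipy 1.17.1). Named genes were the rule genes, genes the study names, those of largest change past the threshold, list members of highest UMI count and genes higher in members in 6 mice. The members and lists were chosen with earlier results of these data known. Tested on simulated data for control against AAA (185 genes, 85 changed), the fit recovered 100% of log2 fold changes of 2 and 74.4% of those of 1, with 1 false call among 100 unchanged genes. The simulation gave every gene the same dispersion (0.0143), so these rates need not hold for the real counts, where genes can vary more between mice. Coordinates are GRCm38 (GENCODE annotation). Lane 1 was not used here. Intervals cover counting error only. A ratio of members to the other hexagons is not reported here for every gene.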

Additional observations from a re-analysis of the deposited data

How the results depend on the processing

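The calls between control and AAA were few and changed with the processing, while no called gene changed direction in any alternative that tested it. The counts higher and lower in AAA, 4 and 5, became 0 and 2 with DESeq2 (13 genes at an unadjusted p under 0.05), 2 and 5 with scaling by library size alone, 8 and 4 with UMIs over whole genes, 2 and 2 with a minimum of 75 genes, 2 and 2 at 5 or more contractile UMIs, and 0 and 0 in edgeR without the low-count filter (274 at an unadjusted p under 0.05, with the median log2 fold change at 0.63). They became 1 and 0 without hexagons holding a macrophage marker UMI, 3 and 5 with the rule genes in the tested set and 3 and 5 with the hexagon grid shifted. Leaving out 1 mouse gave 0 to 4 higher and 0 to 8 lower, with 0 and 0 without control mouse 1 or AAA mouse 3. Bc1 passed in 2 of 12 alternatives and Lamp1 in 4 of 13, against 12 of 16 for Mgp, 11 of 15 for Sost and 10 of 13 for Hspb1. Same-numbered mice, whose aortas were embedded together, had correlated deviations of only 0.0656, 0.191 and 0.0736, and a fit with this pairing as a replicate block gave 4 and 5, the same genes. The share of smooth muscle hexagons was lower in AAA in every alternative, and the difference of -17.0 percentage points became -5.39 with UMIs over whole genes, -6.70 at 5 or more contractile UMIs, -8.28 after thinning and -32.1 with a minimum of 75 genes, and ran from -21.1 to -14.5 when 1 mouse was left out (exact permutation, p = 0.2, the smallest possible). Median UMIs per member, 84.8 ± 8.55 in control and 92.2 ± 6.71 in AAA (SD, n = 3 and 3, exact permutation test, p = 0.4), differed by -7.67 with UMIs over whole genes (exact permutation test, p = 0.9). Among genes that did not pass, Mylk turned to 0.0081 with UMIs over whole genes, Tpm2 to 0.093 there and 0.21 without the low-count filter, Cpe and Hspa8 to 0.032 without that filter, and Bgn to -0.013 with DESeq2 and to between -0.13 and 0.13 when 1 mouse was left out. Ptgis passed with a minimum of 75 genes (-1.25), on the shifted grid (-1.001) and without control mouse 2 (-1.01) but was at -0.46 without control mouse 3, Fn1 with UMIs over whole genes (0.76), at 5 or more contractile UMIs (0.93) and without AAA mouse 2 (0.81), Hspa8 at 5 or more contractile UMIs (-1.35), Hba-a2 without control mouse 3 (-1.42) or AAA mouse 2 (-1.34), and Cnn1 on the shifted grid (-1.04). The causes were not tested.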
